A study of Mus musculus with 18 samples.

Results

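Neural progenitors made from mouse embryonic stem cells and expressing Hoxb1 were compared with and without SAG, a small molecule that switches on hedgehog signalling by activating its membrane transducer Smoothened. The cells were chosen by their labels: 3 libraries of progenitors given doxycycline (DOX) and labelled as expressing Hoxb1, and 3 libraries that carried the same label and were given DOX together with SAG, 6 of the 18 libraries of the series. The strain is C57BL/6 in both groups. DOX was present in both, so that it does not separate them. Another 6 libraries, neural progenitors of the same strain labelled as not expressing Hoxb1 and with no DOX named in their labels, again 3 with SAG and 3 without, were used to ask whether the SAG response differed in the presence of Hoxb1. In that second comparison Hoxb1 and DOX cannot be told apart. The remaining 6 libraries, of another progenitor type, were not analysed here except in 1 alternative fit. The sources used here do not give the dose and length of the SAG treatment, the construct behind Hoxb1, the number of clones, or whether a group's libraries came from separate cultures. The p-values therefore measure the spread between these libraries, which may be technical.

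In the developing neural tube, Sonic hedgehog from the notochord and floor plate spreads dorsally and sets up bands of progenitors, each marked by its own transcription factors. From ventral to dorsal these bands are the floor plate, p3, pMN and p2 to p0, followed by the dorsal domains that depend on BMP and Wnt signals. Cells read the signal through Ptch1 and Smoothened, which control the Gli transcription factors, and they answer by making inhibitors of the pathway. In the hindbrain the ventral band marked by Nkx2-2 gives rise first to branchiomotor and visceral motor neurons and later to serotonergic neurons. Hoxb1 is the homeodomain factor of rhombomere 4, the hindbrain segment from which facial branchiomotor neurons arise.

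By their labels the cells with SAG carry library numbers 2536 to 2538 and those without it 7393 to 7395, so that SAG and library set cannot be told apart in any value below. Depth differed in the same way: the libraries with SAG held 22610407 to 24488882 counts and those without 13301476 to 14505711. Mitochondrially encoded genes took 1.25% to 1.36% of counts with SAG and 1% to 1.12% without. The median log2 change by quartile of summed exon length ran from 0.26 for the shortest genes to -0.20 for the longest, and from 0.27 to -0.22 in the pair of groups without Hoxb1. By chromosome the medians were -0.16 for chromosome 11, -0.14 for chromosome 8 and 0 to 0.08 for the others. In the pair of groups without Hoxb1, chromosomes 11 and 8 stood at -0.04 and -0.23. These shifts were thus not equal with and without Hoxb1, and their part in the results was not tested. The part of depth and gene length in the results was not tested further than by the alternative fits described at the end, which include equal depth and a removed length trend.

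Hoxb1 itself (ENSMUSG00000018973, chromosome 11, 96365752 to 96368256, plus strand, mm10) was measured first, because it checks the labels. Its level was 349.5, 343 and 317 CPM without SAG and 635, 597 and 612 CPM with it. All 6 libraries held it far above the progenitors without Hoxb1, whose group means were 0.37 and 0.475 CPM without and with SAG, and the 3 libraries with SAG were all above the 3 without (log2 change 0.87, SE 0.0371, adjusted p = 2.11e-19). The groups compared therefore differ in their level of Hoxb1 as well as in SAG. The label of neural progenitor was read against 7 markers. Sox2, which keeps neural cells in the progenitor state, stood at 544 and 406 CPM as group means without and with SAG. Vim and Nes, intermediate filament genes of neural progenitors, stood at 2356 and 1468 CPM and 325 and 279.5 CPM. Sox1, Sox3, Fabp7 and Pax6 were also present, at 213 and 103 CPM, 69.1 and 35.9 CPM, 817 and 306 CPM and 112 and 14.3 CPM, so that all 7 markers were found in both groups. Each of the 7 was lower with SAG (log2 changes -0.22 for Nes to -2.97 for Pax6). Neurons were also present, since Tubb3, the neuronal tubulin, stood at 466 and 303 CPM. In such bulk libraries a smaller number of cells of a type and less RNA per cell cannot be told apart.

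SAG went with widespread change in the cells with Hoxb1. Of 16238 tested genes, 5915 rose and 5811 fell (edgeR quasi-likelihood test, Benjamini-Hochberg adjusted p under 0.05), which is 72.2% of all genes, 36.4% higher and 35.8% lower. Because so many genes were called, groups of genes are read below against these shares and against the share that changed at least 2-fold, 7.59% higher (1232 genes) and 7.64% lower (1241 genes). The median over all tested genes was 0.01 on the log2 scale. Levels are counts scaled to an effective library of 1000000 counts (CPM), given for replicates 1, 2 and 3 in that order or as the mean ± SD of 3 libraries. A log2 change is SAG minus no SAG.

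**Figure D1:**
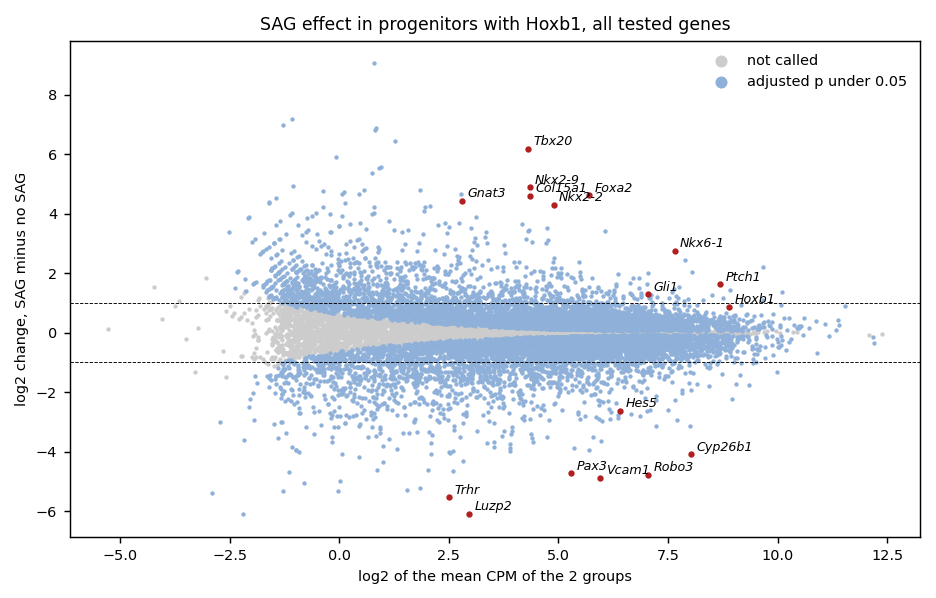
Log2 change with SAG in progenitors expressing Hoxb1 (vertical axis) against the log2 of the mean CPM of both groups (horizontal axis), 1 point per tested gene, blue where the adjusted p is under 0.05; dashed lines mark 2-fold. Tbx20 (log2 change 6.17) and Luzp2 (-6.08) lie at the ends of the range among genes of at least 10 CPM.

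The 10 largest rises among genes of at least 10 CPM included several regulators of the ventral neural tube. Tbx20, a T-box factor of branchiomotor neurons (ENSMUSG00000031965, chromosome 9, 24720812 to 24774303, minus strand), stood at 0.639, 0.464 and 0.503 CPM without SAG and 39.5, 38.4 and 39.6 CPM with it (log2 change 6.17, SE 0.151, adjusted p = 8.64e-32). The gene was nearly absent from the libraries without SAG and present at a similar level in all 3 with it. Nkx2-9, Foxa2 and Nkx2-2 were also among the 10 and are described with their domains. Col15a1, a collagen of basement membrane zones, rose from 1.6 ± 0.418 to 39 ± 0.468 CPM (log2 change 4.59). Gnat3, the taste G protein alpha subunit, rose from 0.615 ± 0.141 to 13.4 ± 0.616 CPM (4.44). Lefty1, a secreted inhibitor of Nodal, rose from 1.1 ± 0.235 to 16.3 ± 0.419 CPM (3.89). Ppp1r17, a phosphatase inhibitor known from cerebellar Purkinje cells, rose from 2.65 ± 0.553 to 33.3 ± 1.68 CPM (3.64). Igfbp7, which binds insulin-like growth factors, rose from 0.872 ± 0.259 to 10.4 ± 0.947 CPM (3.55).

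The 10 largest falls included genes of dorsal cells, of commissural axons, of glycine signalling and, with Tlx1, of excitatory dorsal neurons. Robo3, the receptor that lets commissural axons approach the midline, stood at 271, 254 and 241 CPM without SAG and 8.45, 9.83 and 9.47 CPM with it (log2 change -4.78, SE 0.0804, adjusted p = 1.01e-17). Its 3 libraries with SAG were far below every library without it. Vcam1, an adhesion molecule, fell from 120.1 ± 2.2 to 4.1 ± 0.282 CPM (log2 change -4.87). Luzp2, a leucine zipper protein, fell from 15.4 ± 0.734 to 0.218 ± 0.138 CPM (-6.08). Trhr, the receptor of thyrotropin-releasing hormone, fell from 11.2 ± 0.545 to 0.236 ± 0.0313 CPM (-5.53). Glra1 and Slc6a5, the glycine receptor subunit and the neuronal glycine transporter, fell from 11.7 ± 0.403 to 0.45 ± 0.234 CPM (-4.66) and from 13.5 ± 0.748 to 0.681 ± 0.204 CPM (-4.3). Kcnh1, a potassium channel, fell from 10.9 ± 0.429 to 0.653 ± 0.147 CPM (-4.05). Pax3, Cyp26b1 and Tlx1 complete the 10 and are described below.

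All 4 feedback genes of the hedgehog pathway rose, 4 of 4 at least 2-fold, where 36.4% of all tested genes rose and 7.59% did so at least 2-fold (median log2 change 1.57). Gli1, the Gli factor that is itself switched on by the pathway (ENSMUSG00000025407, chromosome 10, 127329889 to 127341589, minus strand), stood at 75.9, 78.8 and 75.3 CPM without SAG and 167, 205 and 189 CPM with it (log2 change 1.29, SE 0.0927, adjusted p = 9.04e-07). Ptch1, the hedgehog receptor that holds Smoothened inactive, stood at 207, 202 and 198 CPM without SAG and 630.5, 611 and 617 CPM with it (log2 change 1.62, SE 0.0417, adjusted p = 6.63e-22). In both genes every library with SAG was above every library without it. Hhip, a membrane protein that binds and sequesters hedgehog ligand, stood at 11.9, 11.2 and 11.6 CPM without SAG and 35.2, 32.8 and 31.8 CPM with it (log2 change 1.52, SE 0.0985, adjusted p = 2.23e-12). All 4 also had a positive difference from the response without Hoxb1, as did 16.8% of all tested genes. There Gli1 stood at 158 and 142 CPM without and with SAG (log2 change -0.14, adjusted p = 0.161) and Hhip at 29.6 and 29.9 CPM (0.02, adjusted p = 0.876), while Ptch1 rose by 1.15 (2 of the 4 genes were called higher, against 36.5% of all tested genes). The difference of the SAG effects, with Hoxb1 minus without, was 1.43, SE 0.127, adjusted p = 1.76e-05 for Gli1 and 1.51, SE 0.131, adjusted p = 2.54e-09 for Hhip. It was 0.46 for Ptch1 (adjusted p = 3.81e-07). The starting levels differed as well: without SAG, Gli1 stood at 76.7 CPM with Hoxb1 and 158 CPM without. Without Hoxb1, Gli1 was called lower with SAG in 4 of 22 alternative fits.

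Of 26 tested components of the pathway, 7 rose and 13 fell, against 36.4% and 35.8% of all genes. Coreceptors and the other Gli factors were among those that fell. Boc, a coreceptor for hedgehog ligand, stood at 209, 204 and 199.7 CPM without SAG and 27.1, 30.1 and 30.1 CPM with it (log2 change -2.81, SE 0.0419, adjusted p = 3.20e-39). Gas1, another coreceptor, fell from 90.8 ± 2.33 to 21.9 ± 0.673 CPM (-2.05, adjusted p = 5.34e-31), and a further one, Cdon, was not called (26.7 and 24 CPM, adjusted p = 0.0554). Gli3, the main repressor in the dorsal tube, fell from 162 ± 7.02 to 46.9 ± 0.597 CPM (-1.79), and Gli2, the main activator, fell from 101 ± 6.42 to 43.1 ± 1.63 CPM (-1.23). Scube2, which helps to release hedgehog ligand, fell from 11.2 ± 0.653 to 1.16 ± 0.363 CPM (-3.26). Smo, the target of SAG, rose by 0.11 (197 and 213 CPM, adjusted p = 0.00182), and Sufu, which restrains Gli factors, was not called (80.2 and 84.9 CPM, adjusted p = 0.0523). With the length trend removed, 11 components rather than 7 were called higher. Among 8 proliferation genes linked to hedgehog, Mycn, a Myc factor, rose from 89.7 ± 0.713 to 159.7 ± 1.38 CPM (0.83), and Igf2, a growth factor gene, rose from 611 ± 24.8 to 1572 ± 31.1 CPM (1.36). 4 fell, from Bcl2, a survival gene (-0.64), to Ccnd2 (-0.1), and Ccnd1, cyclin D1, was among them (521 and 484 CPM, -0.11).

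Of 15 floor plate genes, 9 rose (7 of them at least 2-fold) and 4 fell, with a median of 0.88. Foxa2, the forkhead factor that defines the floor plate, stood at 3.41, 4.41 and 4.45 CPM without SAG and 102, 100.5 and 97.9 CPM with it (log2 change 4.62, SE 0.0737, adjusted p = 2.88e-38). Shh, the ligand made by the floor plate, stood at 16.8, 18.4 and 17 CPM without SAG and 71.1, 72.2 and 72.9 CPM with it (log2 change 2.05, SE 0.0569, adjusted p = 7.56e-30). Ntn1, the netrin that attracts commissural axons, stood at 257, 263 and 266 CPM without SAG and 729.5, 699 and 699.9 CPM with it (log2 change 1.44, SE 0.0319, adjusted p = 2.84e-33). In all 3 genes the groups did not overlap, which was also true of 74.9% of all tested genes. Foxa1 rose by 1.56, Slit1 and Slit2, the midline repellents, by 1.27 and 0.88, and Sulf1, a heparan sulfatase, by 1.27. Ferd3l, a bHLH gene of the floor plate, rose by 2.34 at a low level (0.248 and 1.26 CPM). Other members went the other way. Spon1, which encodes F-spondin, fell from 238 ± 4.51 to 186 ± 6.12 CPM (-0.36), whereas it rose from 158 to 416 CPM (1.4) without Hoxb1, a difference of -1.75, SE 0.0465, adjusted p = 1.78e-29. Corin, a protease gene of the midbrain floor plate, fell from 9.01 ± 0.412 to 6.66 ± 0.162 CPM (-0.44) and rose without Hoxb1 (0.79), a difference of -1.23 (adjusted p = 2.18e-11). Nr4a2, of midbrain dopamine neurons, and Sox21, a SoxB2 factor, fell (log2 changes -0.96 and -1.13). Lmx1b (59 and 57.3 CPM, adjusted p = 0.38) and Foxj1, the master gene of motile cilia (8.83 and 10 CPM, adjusted p = 0.104), were not called, and Foxj1 was called higher with upper-quartile scaling (adjusted p = 0.041).

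The p3 domain, the most ventral neuronal progenitor band, had 4 tested genes, and all 4 rose at least 2-fold (median 2.96). Nkx2-2, its defining homeodomain factor, stood at 2.77, 2.78 and 3.02 CPM without SAG and 55.3, 56.2 and 57.7 CPM with it (log2 change 4.3, SE 0.093, adjusted p = 1.16e-33). A gene on its other strand, Nkx2-2os, had 1 count in the 3 libraries without SAG and 19 in those with it. How strand was used in counting is not given, so that reads of this pair cannot be told apart. Nkx2-9 stood at 1.14, 1.31 and 1.51 CPM without SAG and 41.6, 38.2 and 37.7 CPM with it (log2 change 4.88, SE 0.121, adjusted p = 1.26e-31). Both genes rose without Hoxb1 too, by 3.42 and 4.84. Their differences were 0.88 (adjusted p = 1.47e-05) and 0.04 (adjusted p = 0.938, SE 0.33), of which only the first passed the test. Sim1, a marker of V3 neurons, rose from 5.18 ± 0.0757 to 12.1 ± 0.994 CPM (1.22).

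The pMN domain gives rise to somatic motor neurons in the spinal cord, and its genes were mixed: 3 of 6 rose and 2 fell. Nkx6-1, a homeodomain factor of the ventral progenitors, stood at 50.7, 52.5 and 52.1 CPM without SAG and 353, 348 and 351 CPM with it (log2 change 2.76, SE 0.0386, adjusted p = 3.52e-40). Nkx6-2 rose from 26.6 ± 2.46 to 61.1 ± 0.642 CPM (1.21). Olig2, the defining factor of pMN, stood at 17.3, 17.8 and 17.5 CPM without SAG and 31.7, 32.4 and 32 CPM with it (log2 change 0.87, SE 0.0639, adjusted p = 1.26e-15), and its groups did not overlap. Without Hoxb1, Olig2 fell (log2 change -0.18, adjusted p = 0.0036), a call lost in 1 of 22 alternatives, and the difference was 1.05, SE 0.0849, adjusted p = 1.66e-13. Olig1 was not called (7.35 and 8.49 CPM, adjusted p = 0.0973) except with upper-quartile scaling (adjusted p = 0.0432). Neurog2, the proneural factor of motor neuron progenitors, fell from 43.7 ± 2.2 to 7.29 ± 0.324 CPM (-2.58), and Lrrtm1 fell from 10.2 ± 1.25 to 6.95 ± 1.2 CPM (-0.55).

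**Figure D2:**
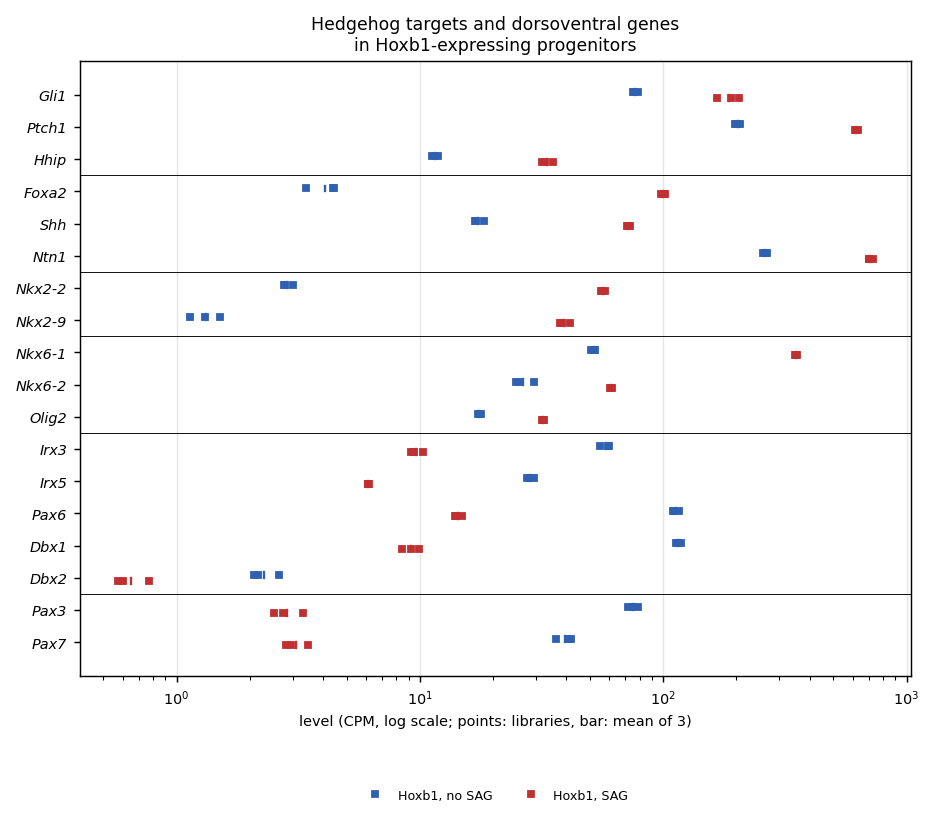
Level of hedgehog targets and dorsoventral genes (CPM, log axis) in the 3 libraries of progenitors with Hoxb1 without SAG (blue) and the 3 with SAG (red); points are libraries and short bars are means. From the top, lines divide feedback genes, floor plate, p3, pMN, p0 to p2 and dorsal genes; for the genes drawn the libraries with SAG lie to the right in the first 4 sets (Foxa2 at 97.9 to 102 CPM) and to the left in the other 2 (Pax3 at 2.51 to 3.30 CPM), while 4 floor plate, 2 pMN and 6 dorsal genes that are not drawn went the other way.

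More dorsal progenitor genes were lower. Of 10 genes of the p0 to p2 domains, which produce ventral interneurons, 0 rose and 10 fell, 9 of them at least 2-fold (median -2.4). 1 of the 10 reached the filter's minimum of 0.539 CPM in 3 libraries only through those without SAG. The fall of this gene was largely fixed by the filter. Dbx1, the homeodomain factor of p0, stood at 118, 115 and 113 CPM without SAG and 9.9, 8.46 and 9.22 CPM with it (log2 change -3.65, SE 0.0548, adjusted p = 3.45e-39). Pax6, which is repressed at high hedgehog levels, stood at 116, 110 and 111 CPM without SAG and 14, 14.9 and 14 CPM with it (log2 change -2.97, SE 0.051, adjusted p = 2.83e-37). Irx3, the Iroquois factor that borders pMN, stood at 59.8, 59.3 and 54.9 CPM without SAG and 9.2, 9.47 and 10.3 CPM with it (log2 change -2.59, SE 0.0707, adjusted p = 7.07e-30). In all 3 genes each library with SAG was far below the lowest without it. The log2 changes were -2.21 for Irx5, -1.75 for Irx2, -1.81 for Dbx2, -2.66 for Prdm8, -2.9 for Prdm12 and -1.68 for Foxn4, a factor of V2 interneurons. Irx1 had the smallest change (19.9 and 17.7 CPM, log2 change -0.17, adjusted p = 0.0366) and missed the threshold in 10 of 22 alternatives. Of the 10 genes, 8 fell without Hoxb1 (36.3% of all tested genes did) and 8 had a negative difference (18.6%). The difference was -2.5, SE 0.0754, adjusted p = 1.82e-27 for Dbx1, which fell from 71.8 to 32.3 CPM without Hoxb1. It was -2.14 for Prdm8 (adjusted p = 1.40e-12), -2.08 for Dbx2 (adjusted p = 2.36e-05) and -1.64 for Foxn4 (adjusted p = 4.12e-05). Irx1 had a positive one (0.41, adjusted p = 0.000936).

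Of 23 tested dorsal neural tube genes, 16 fell, 15 of them at least 2-fold, and 6 rose (median -1.41). 2 of the 23 reached the filter's minimum only through libraries without SAG, so that a fall of these was largely fixed by the filter. Pax3, the paired-box factor of dorsal progenitors, stood at 78.9, 74.6 and 71.5 CPM without SAG and 3.3, 2.74 and 2.51 CPM with it (log2 change -4.72, SE 0.0832, adjusted p = 6.17e-37). Pax7, its paralogue, stood at 40.8, 36.2 and 41.7 CPM without SAG and 2.95, 2.82 and 3.48 CPM with it (log2 change -3.68, SE 0.0959, adjusted p = 8.40e-31). Neither gene had overlapping groups. Pax7 fell further without Hoxb1, from 13 to 0.0807 CPM (-7.22). Its difference of 3.54 (adjusted p = 1.67e-09) is positive although the gene fell in both settings. That difference was 2.95 at equal depth and 4.46 without replicate 3 of the cells with SAG and without Hoxb1. All 5 Zic genes fell, with log2 changes of -0.86 (Zic1) to -2.68 (Zic4). Gsx2 and Gsx1, homeobox genes of dorsal interneuron progenitors, fell (-3.52 and -1.41), and Gsx1 rose without Hoxb1 (1.23, difference -2.63, adjusted p = 2.81e-16). The 6 that rose were the ligands Bmp4 (2.19), Bmp6 (2.77) and Wnt1 (1.12), and the homeobox genes Msx1 (2.08), Msx2 (0.54) and Lmx1a (0.85). Wnt1 fell without Hoxb1 (-1.55), a difference of 2.67 (adjusted p = 1.35e-30).

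Genes of branchiomotor and visceral motor neurons were higher as a group. Of 12 tested members, 9 rose, 8 of them at least 2-fold, and 1 fell (median 1.35, against 1.0 without Hoxb1). Without Hoxb1, 9 of the 12 rose with SAG and 2 fell. 2 of the 12 reached the filter's minimum of 0.539 CPM in 3 libraries only through those with SAG. A rise of these was largely fixed by the filter. Phox2a, a homeodomain factor of branchiomotor and visceral motor neurons, stood at 3.26, 4.25 and 4.24 CPM without SAG and 34.9, 34.7 and 34.1 CPM with it (log2 change 3.14, SE 0.0962, adjusted p = 2.23e-28). Without Hoxb1 the same gene was not called (2.67 and 2.5 CPM, adjusted p = 0.58), and the difference was 3.25, SE 0.221, adjusted p = 1.01e-15. Tbx20 rose without Hoxb1 too (from 0.515 to 2.28 CPM, 2.13), but less, and its difference was 4.04, SE 0.523, adjusted p = 3.46e-08. That difference was 3.06 without replicate 1 of the cells without Hoxb1 or SAG. Isl1, the LIM factor needed by motor neurons, stood at 6.81, 5.96 and 4.6 CPM without SAG and 45.1, 46.1 and 48.3 CPM with it (log2 change 3.0, SE 0.0858, adjusted p = 1.96e-29), with a difference of 1.39 (adjusted p = 2.44e-10). Ret, the receptor subunit for GDNF ligands, rose from 9.45 ± 0.278 to 49.2 ± 1.67 CPM (2.38), with a difference of 1.28 (adjusted p = 2.40e-07). Tbx2 and Tbx3 rose by 1.38 and 1.32. Gata2 and Gata3, factors that act downstream of Hoxb1 in rhombomere 4, rose by 1.04 and 0.3 and had risen more without Hoxb1 (differences -0.69 and -0.39, adjusted p = 8.95e-06 and adjusted p = 0.0226). Ebf1, a helix-loop-helix factor of migrating neurons, fell from 69.8 ± 3.85 to 46.6 ± 0.349 CPM (-0.58). Hmx3 and Hmx2 were not called with Hoxb1 (adjusted p = 0.254 and adjusted p = 0.676) and rose without it (3.91 and 2.84).

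Of 6 tested cholinergic genes, 4 rose and 1 fell. Chat, the enzyme that makes acetylcholine, stood at 2.34, 1.78 and 1.22 CPM without SAG and 5.81, 7.29 and 6.39 CPM with it (log2 change 1.87, SE 0.179, adjusted p = 3.35e-12). Prph, which encodes the neuronal filament peripherin, stood at 1.7, 1.16 and 1.72 CPM without SAG and 10.8, 11.2 and 10.6 CPM with it (log2 change 2.81, SE 0.15, adjusted p = 4.13e-20). Both genes were low in all libraries and higher in each library with SAG. Slc5a7, the choline transporter, rose from 0.658 ± 0.108 to 2.38 ± 0.335 CPM (1.84), and Ache, acetylcholinesterase, fell from 25.2 ± 0.35 to 15.8 ± 0.93 CPM (-0.68). The difference was 2.27, SE 0.311, adjusted p = 1.18e-07 for Prph. For Chat it was 2.13, SE 0.882, adjusted p = 0.0556, short of the threshold, which it passed in 7 of 21 alternatives. In somatic motor neuron genes, 7 of 9 rose and 2 fell. 2 of the 9 reached the filter's minimum only through libraries with SAG and 1 only through those without. The direction of these was largely fixed by the filter. Isl2 (from 0.297 to 1.35 CPM) and Mnx1 (from 0.47 to 1.36 CPM), the defining homeodomain factors of these neurons, rose at levels near 1 CPM. Lhx3, which pairs with Isl1 in them, fell from 1.09 ± 0.21 to 0.471 ± 0.0626 CPM (-1.21), and Lhx1 fell from 101 ± 2.26 to 8.93 ± 0.357 CPM (-3.51). Of 11 serotonergic genes, 8 rose and 2 fell (median 1.04, and 1.73 without Hoxb1). 3 of the 11 reached the filter's minimum only through libraries with SAG, so that a rise of these was largely fixed by the filter. Fev, the Ets factor of serotonergic neurons, rose from 0.438 ± 0.113 to 3.25 ± 0.117 CPM (2.87), and Tph1, a tryptophan hydroxylase, rose from 0.144 ± 0.121 to 1.57 ± 0.315 CPM (3.37, and 4.29 without replicate 1 of the cells without SAG). Slc6a4, the serotonin transporter, rose from 0.363 ± 0.113 to 2.12 ± 0.315 CPM (2.52) with Hoxb1 and from 0.22 to 11.1 CPM (5.62) without it, a difference of -3.1, SE 0.585, adjusted p = 4.03e-05. Over the 11 serotonergic genes 6 differences were negative and 1 positive, against 18.6% and 16.8% of all tested genes.

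Interneuron genes were lower. Here 3 of 14 dorsal, 3 of 16 ventral and 2 of 10 transmitter genes reached the filter's minimum only through libraries without SAG. A fall of these was largely fixed by the filter. Of 14 tested dorsal interneuron genes, 12 fell, 10 of them at least 2-fold, and 1, Foxp2, rose (median -2.57); Foxp2 was not called without replicate 2 of the cells without SAG. Tlx1 and Tlx3, homeobox genes of excitatory dorsal neurons, fell from 10.7 ± 0.901 to 0.647 ± 0.145 CPM (-4.02) and from 8.03 ± 0.744 to 0.466 ± 0.149 CPM (-4.07). Prrxl1, of the same neurons, fell from 1.95 ± 0.175 to 0.0551 ± 0.0225 CPM (-4.98), with 4 counts in the 3 libraries with SAG. Of 16 ventral interneuron genes, 11 fell, Lhx1 and Uncx (-2.92) the furthest, and 4 rose, with Nkx2-2, Sim1 and Gata3 among them. Of 10 genes of transmitter identity, 7 fell and 1 rose. Slc17a6, the vesicular glutamate transporter of these neurons, fell from 27.6 ± 0.776 to 2.04 ± 0.15 CPM (-3.75), and Slc17a8, another such transporter, rose from 2.26 ± 0.469 to 18.5 ± 1.18 CPM (3.02).

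3 genes of that list serve GABA, and they are given together because of their values. Slc32a1, the vesicular GABA transporter, stood at 36.3, 35.6 and 37.8 CPM without SAG and 6.6, 5.8 and 6.07 CPM with it (log2 change -2.57, SE 0.0787, adjusted p = 2.22e-28). Without Hoxb1 it stood at 15.5, 18.9 and 19.1 CPM without SAG and 24, 22.9 and 22.6 CPM with it, a rise of 0.38 (adjusted p = 1.39e-05), and the difference was -2.95, SE 0.107, adjusted p = 9.85e-25. The direction of the SAG change in this gene was thus opposite in the 2 settings. Gad2, one of the enzymes that make GABA, fell from 51.7 ± 2.35 to 12.7 ± 1.24 CPM (-2.03) with Hoxb1 and rose from 34.4 to 44.7 CPM without it (difference -2.4, SE 0.0891, adjusted p = 2.70e-24). Gad1, the other, fell from 44 ± 1.42 to 13.9 ± 0.953 CPM (-1.66) and was not called without Hoxb1 (42 and 42 CPM, adjusted p = 0.98, difference -1.66, SE 0.0879, adjusted p = 3.32e-19).

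Most general neuronal genes were lower while 3 axonal genes were higher. Of 23 postmitotic neuron genes, 20 fell, 10 of them at least 2-fold, and 3 rose (median -0.88). Dcx, doublecortin of migrating neurons, fell from 413 ± 14.6 to 109.7 ± 4.3 CPM (-1.91), Mapt, the axonal protein tau, fell from 206 ± 12.8 to 45.5 ± 0.742 CPM (-2.18), and Tubb3 fell less (-0.62). Nhlh1, a factor of new neurons, and Mab21l1 fell by -2.35 and -3.4. The 3 that rose were the neurofilament genes Nefm and Nefl and the growth cone gene Gap43. Nefm stood at 108, 106 and 110.4 CPM without SAG and 286, 278 and 271 CPM with it (log2 change 1.37, SE 0.035, adjusted p = 4.26e-31). Nefl rose from 279.5 ± 13.7 to 356 ± 14.5 CPM (0.35), and Gap43 rose from 134 ± 6.42 to 169.9 ± 4.77 CPM (0.35). Without Hoxb1 all 3 fell (log2 changes -1.53, -1.68 and -0.64). The differences were 2.9, SE 0.0591, adjusted p = 1.38e-33 for Nefm, 2.02 for Nefl (adjusted p = 8.14e-17) and 0.99 for Gap43 (adjusted p = 5.17e-19). Of 12 proneural genes, 11 fell and 1, Neurod4 (0.32), rose. 2 of the 12 reached the filter's minimum only through libraries without SAG, so that a fall of these was largely fixed by the filter. Neurog1 fell from 48.8 ± 1.65 to 4.27 ± 0.231 CPM (-3.51).

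Notch pathway genes were lower with SAG in the cells with Hoxb1: of 19 tested, 14 fell, 6 of them at least 2-fold, and 1 rose (median -0.42). Without Hoxb1, 10 rose and 6 fell (median 0.15), and the difference was called negative for 13 of 19 and positive for 2, against 18.6% and 16.8% of all tested genes. Hes5, the repressor switched on by Notch in progenitors (ENSMUSG00000048001, chromosome 4, 154960923 to 154962371, plus strand), stood at 149, 143 and 143 CPM without SAG and 22.1, 23.9 and 24.7 CPM with it (log2 change -2.62, SE 0.0451, adjusted p = 2.85e-37). Without Hoxb1 it stood at 70.5, 65.9 and 65.4 CPM without SAG and 88.6, 88.8 and 92.8 CPM with it, a rise of 0.42 (adjusted p = 9.65e-12), and the difference was -3.04, SE 0.0617, adjusted p = 1.38e-33. No library with Hoxb1 and SAG reached the level of any library without Hoxb1. Dll1, the ligand that new neurons present, fell from 225 ± 5.6 to 88.3 ± 5.65 CPM (-1.35), with a difference of -1.4 (adjusted p = 2.65e-11). Notch1, the receptor, fell from 484 ± 19 to 210.1 ± 9.0 CPM (-1.2), with a difference of -1.17 (adjusted p = 1.42e-11). Nrarp, a feedback inhibitor, fell from 133 ± 8.0 to 59.9 ± 1.02 CPM (-1.15), with a difference of -1.8 (adjusted p = 1.51e-25). Dner, a Notch-related transmembrane protein, fell from 108 ± 1.12 to 21.6 ± 1.56 CPM (-2.33). Hes1, the other main Hes repressor, rose from 44.7 ± 0.547 to 100.3 ± 1.55 CPM (1.17), with a difference of 0.99 (adjusted p = 6.87e-17). Of 15 radial glia and SoxB1 genes, 12 fell and 3 rose. Sox9 fell from 174 ± 4.11 to 46 ± 2.04 CPM (-1.92), and Gfap, an astrocyte filament gene, rose from 0.325 ± 0.276 to 1.34 ± 0.151 CPM (2.06, and 2.86 without replicate 2 of the cells without SAG). Of 11 oligodendrocyte lineage genes, 5 rose and 5 fell, against 36.4% and 35.8% of all tested genes. Gpr17, of oligodendrocyte precursors, fell from 2.48 ± 0.486 to 0.286 ± 0.14 CPM (-3.07).

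**Figure D3:**
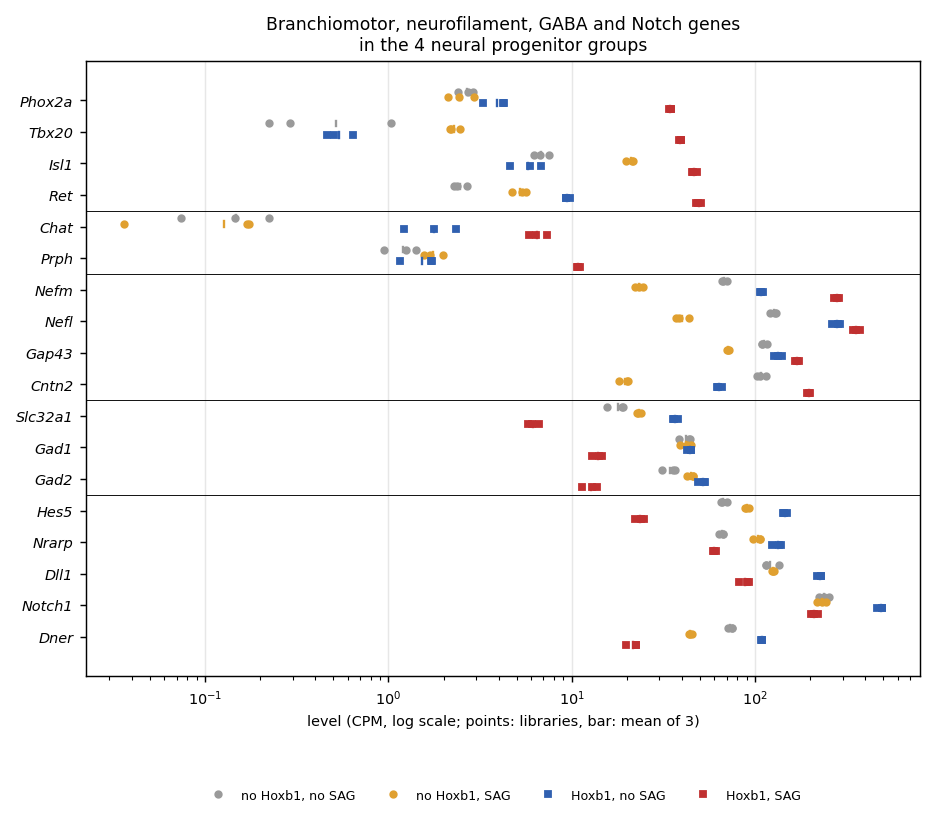
Level (CPM, log axis) of branchiomotor, cholinergic, axonal, GABA and Notch genes in the 3 libraries of each of 4 groups: no Hoxb1 without SAG (grey) and with SAG (orange), Hoxb1 without SAG (blue) and with SAG (red); points are libraries and bars are means, divided by lines into gene sets. Phox2a, Tbx20 and Nefm are highest in the libraries with both Hoxb1 and SAG, and Slc32a1 and Hes5 are lowest there (5.80 to 6.60 and 22.1 to 24.7 CPM).

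Of 9 tested Hox genes of groups 1 to 4, 5 rose (Hoxb1 among them) and 2 fell. 3 of the 9 entered the test only through libraries with SAG, since fewer than 3 libraries without it reached the minimum of 0.539 CPM. Hoxa2, of rhombomeres 2 and beyond, stood at 19.6, 23.4 and 21.9 CPM without SAG and 4.05, 5.6 and 4.9 CPM with it (log2 change -2.15, SE 0.103, adjusted p = 1.25e-21). Without Hoxb1 it was not called (1.77 and 1.49 CPM, adjusted p = 0.353), and the difference was -1.91, SE 0.252, adjusted p = 5.31e-08. Hoxb2, the neighbour of Hoxb1 and one of its targets, rose by 0.13 with Hoxb1 (from 69.5 to 75.9 CPM, adjusted p = 0.0118) and from 0.759 to 2.41 CPM without it. Hoxb3 fell from 20.4 ± 1.25 to 16.7 ± 1.13 CPM (-0.28) and rose without Hoxb1 (1.94). Hoxb4 rose from 6.3 ± 0.899 to 14 ± 0.467 CPM (1.16). Hoxd3 and Hoxc4 rose by 3.06 and 2.8, to means near 1 CPM, and Hoxc4 by 3.39 without replicate 1 of the cells without SAG. Of 15 genes of groups 5 to 9, 11 were tested, and 7 of these entered the test only through libraries with SAG, so that a rise was largely fixed by the filter and their count is no support for one. The 11 were called higher at low levels, and all 15 had summed levels of 4.88 to 6.46 CPM without SAG and 22.4 to 25.4 CPM with it. Hoxa9 rose from 0.246 ± 0.091 to 2.78 ± 0.579 CPM (3.48), and Hoxd9 rose from 0.101 ± 0.119 to 2.1 ± 0.462 CPM (4.34), from 4 counts in the 3 libraries without SAG, and its change was 5.64 without replicate 2 of these. With a filter of 1 CPM in 6 libraries, 3 of these 11 remained in the test and were called, and 3 rather than 5 of groups 1 to 4 were called higher.

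Of 19 rhombomere and axial level genes, 13 fell and 5 rose. Egr2, the zinc finger factor of rhombomeres 3 and 5, rose from 1.27 ± 0.175 to 9.66 ± 0.6 CPM (2.92), with a difference of 1.47 (adjusted p = 7.46e-05). Of 22 forebrain and midbrain genes, 14 fell and 5 rose. Nkx2-1, of the ventral forebrain, rose from 0.973 ± 0.202 to 9.95 ± 1.56 CPM (3.34) with Hoxb1 and from 1.84 to 104 CPM (5.82) without it, a difference of -2.47, SE 0.346, adjusted p = 3.02e-07. Barhl2 fell from 7.34 ± 0.89 to 1.05 ± 0.123 CPM (-2.79). Of 14 retinoid genes, 9 rose and 5 fell. Cyp26b1, the enzyme that breaks down retinoic acid, stood at 511, 489 and 476 CPM without SAG and 27.9, 30.7 and 28.8 CPM with it (log2 change -4.08, SE 0.0412, adjusted p = 3.70e-45). Aldh1a1, which makes retinoic acid, rose from 0.218 ± 0.0665 to 1.52 ± 0.12 CPM (2.76), with a difference of 2.65 (adjusted p = 0.000529).

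FGF feedback genes were mostly lower, and genes of the BMP and Id list, which holds ligands as well as targets, were mostly higher. Of 11 FGF feedback genes, 10 fell and 0 rose (median -0.91). Spry1, an inhibitor made in response to FGF, stood at 181, 188 and 178 CPM without SAG and 56.8, 58.7 and 59.2 CPM with it (log2 change -1.65, SE 0.0383, adjusted p = 1.55e-32). Dusp4, a MAP kinase phosphatase, stood at 299, 322 and 317 CPM without SAG and 53, 50.2 and 50 CPM with it (log2 change -2.61, SE 0.0569, adjusted p = 5.21e-17). Dusp6, a related phosphatase, was not called (187 and 194 CPM, adjusted p = 0.267). All 11 fell without Hoxb1. Of 16 BMP and Id genes, 13 rose and 1 fell (median 0.89). Bmp4 and Bmp5, secreted ligands, rose from 4.33 ± 0.64 to 19.7 ± 1.03 CPM and from 3.01 ± 0.47 to 13.7 ± 1.01 CPM (2.19 and 2.18), Id3, a BMP target, rose from 105 ± 4.85 to 289.9 ± 2.14 CPM (1.46), and Id4 fell from 72.2 ± 3.1 to 31.9 ± 1.49 CPM (-1.18). Of 14 Wnt feedback genes, 8 rose and 4 fell. Sp5, a transcription factor switched on by Wnt, rose from 1.96 ± 0.328 to 18.1 ± 0.94 CPM (3.21), and Wif1, a secreted inhibitor, rose from 1.82 ± 0.5 to 15 ± 0.349 CPM (3.03). Axin2, the usual readout, was not called (85.7 and 86.3 CPM, adjusted p = 0.835). Of 22 axon guidance genes, 8 rose and 13 fell, against 36.4% and 35.8% of all tested genes. Dcc, the netrin receptor, fell from 121 ± 5.2 to 20.7 ± 1.38 CPM (-2.55), opposite to its ligand Ntn1.

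**Figure D4:**
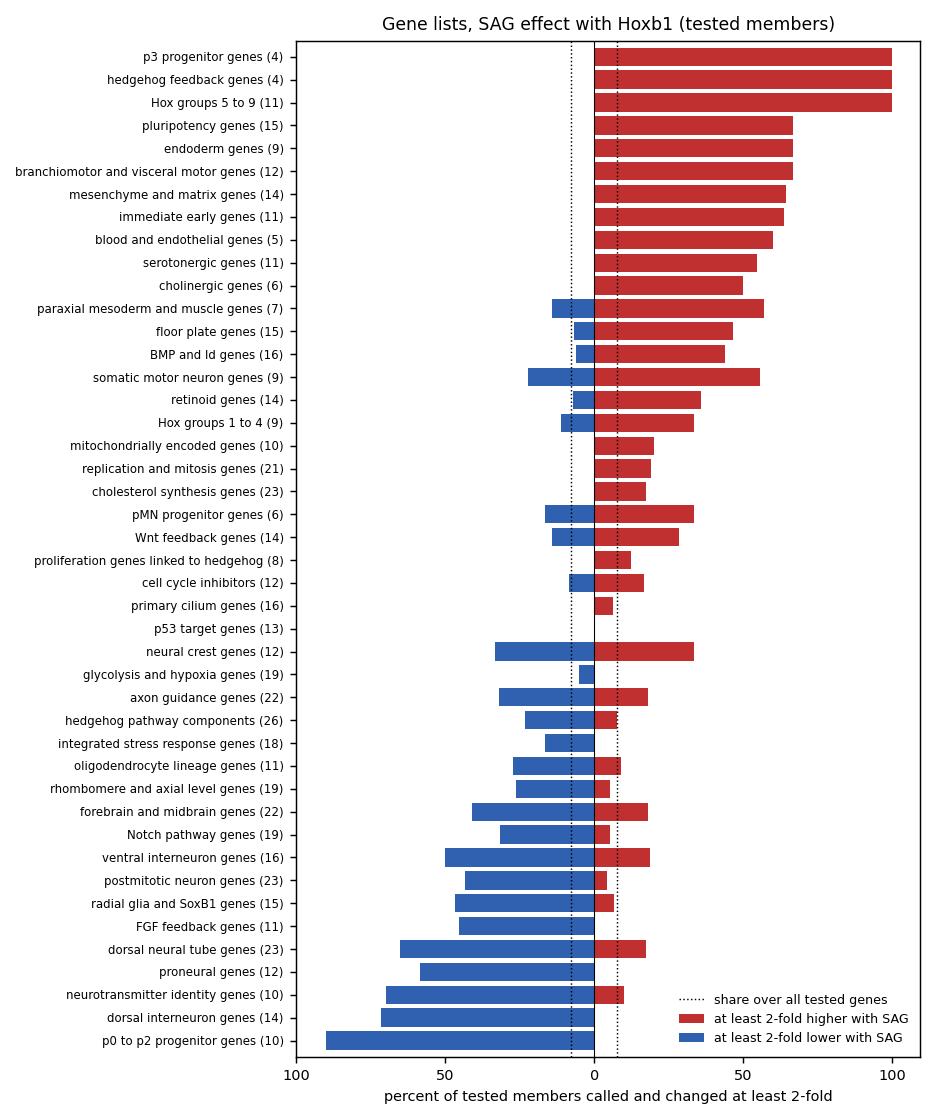
Share of the tested members of each gene list (number tested in brackets) that were called and at least 2-fold higher (red, to the right) or lower (blue, to the left) with SAG in progenitors with Hoxb1, in percent; dotted lines mark the shares over all 16238 tested genes, 7.59% and 7.64%. Lists are ordered by the net share, from p3, hedgehog feedback and Hox groups 5 to 9 at the top to p0 to p2 progenitor genes at the bottom. In Hox groups 5 to 9, 7 of 11 tested members passed the filter only through libraries with SAG. That bar is therefore no support for a rise, and bars of other lists with such members are partly fixed in the same way.

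Markers of cell types other than the neural lineage moved in the same comparison, and their part in the results was not tested. Of 15 pluripotency genes, 15 rose (10 at least 2-fold, median 1.31), and their summed level was 224 to 261 CPM without SAG and 586 to 629 CPM with it. Pou5f1 rose from 31.1 ± 3.01 to 89.1 ± 7.86 CPM (1.52), Tdgf1, a Nodal coreceptor, rose from 6.0 ± 0.349 to 19.5 ± 0.675 CPM (1.7), and Prdm14 rose from 0.631 ± 0.262 to 2.01 ± 0.247 CPM (1.65). Without Hoxb1, 9 of the 15 rose and 1 fell. Of 14 mesenchyme and matrix genes, 12 rose and 1 fell, with sums of 1527 to 1570.4 CPM and 3149 to 3378 CPM. Dcn, the proteoglycan decorin, stood at 6.53, 5.34 and 5.03 CPM without SAG and 48.8, 48.1 and 49.8 CPM with it (log2 change 3.11, SE 0.0788, adjusted p = 2.86e-31), and Twist2 rose from 0.484 ± 0.166 to 5.45 ± 0.697 CPM (3.46). Of 12 neural crest genes, 6 rose and 5 fell, against 36.4% and 35.8% of all tested genes. Their sums were 198 to 206 CPM without SAG and 175 to 186 CPM with it. Tfap2b fell from 76 ± 1.8 to 5.25 ± 0.275 CPM (-3.86), Sox10, the defining factor of migrating crest, fell from 5.01 ± 0.752 to 1.59 ± 0.624 CPM (-1.64), and Snai1, which drives the loss of epithelial contacts, rose from 2.22 ± 0.216 to 11.3 ± 1.05 CPM (2.35).

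Of 9 tested endoderm genes, 8 rose and 1 fell, with sums of 115 to 123 CPM and 251 to 261 CPM, most of the rise being Foxa2 and Foxa1, which are shared with the floor plate. Gata6 rose from 0.688 ± 0.146 to 2.41 ± 0.186 CPM (1.81), and Afp was at 0 in all 6 libraries. Of 7 tested paraxial mesoderm and muscle genes, 4 rose and 2 fell, with sums of 12.6 to 13.6 CPM and 28 to 30.2 CPM. Meox1 and Meox2, factors of somites, rose from 0.319 ± 0.091 to 1.65 ± 0.239 CPM (2.35) and from 1.63 ± 0.338 to 7.73 ± 0.312 CPM (2.24), and Msgn1 was at 0 in all 6 libraries. The second of the 2 falls was Mesp2 (0.612 and 0.317 CPM, adjusted p = 0.0432). Without replicate 1 or 2 of the cells with SAG, without replicate 1 or 2 of those without it, and under 7 other settings, 1 gene was called lower. Of 5 tested blood and endothelial genes, 4 rose and 0 fell, with sums of 12 to 14.2 CPM and 26.1 to 28.3 CPM. Pecam1 and Cdh5, endothelial junction proteins, rose from 7.31 ± 0.379 to 15.6 ± 0.858 CPM (1.09) and from 0.262 ± 0.229 to 2.46 ± 0.198 CPM (3.16), and the haemoglobin genes Hba-a1, Hbb-bt and Hbb-y were at 0. Only through libraries with SAG did 1 of 9 endoderm, 1 of 7 mesoderm and 1 of 5 blood and endothelial genes reach the filter's minimum. Another 1 of the 7 did so only through libraries without SAG. The direction of these was largely fixed by the filter.

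Genes of DNA replication and mitosis were mostly higher. Of 21 replication and mitosis genes, 16 rose and 2 fell (median 0.51). Ccne1 and Ccne2, the cyclins that open S phase, rose from 28.2 ± 2.39 to 65.8 ± 0.839 CPM (1.22) and from 9.66 ± 0.729 to 21.3 ± 0.517 CPM (1.14). Mki67 fell from 560.4 ± 11.4 to 419.5 ± 11.3 CPM (-0.42) and Top2a, a topoisomerase of dividing cells, fell too (-0.32). Of 12 cell cycle inhibitors, 8 fell and 2 rose, namely Cdkn2a (from 4.26 to 10.3 CPM, 1.27) and Cdkn2b (from 2.26 to 8.9 CPM, 1.97). Cholesterol synthesis genes rose together in 22 of 23 cases (median 0.59), as did 23 of 23 without Hoxb1 (median 0.98). Idi1, an isomerase of the isoprenoid steps, rose by 1.42. The difference was called negative for 18 of the 23 and positive for 0, against 18.6% and 16.8% of all tested genes. Of 11 immediate early genes, which respond quickly to stimuli and to handling, 10 rose and 0 fell. Fosb stood at 13.3, 12.2 and 8.69 CPM without SAG and 84.2, 149.8 and 129.9 CPM with it (log2 change 3.42, SE 0.326, adjusted p = 1.08e-05), and its libraries with SAG were scattered but all above those without. Egr3 rose from 0.628 ± 0.322 to 4.98 ± 0.903 CPM (2.97).

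Of 18 integrated stress response genes, 11 fell and 2 rose (median -0.35), whereas all 18 fell without Hoxb1 (median -1.57). The difference was called positive for 16 and negative for 1, against 16.8% and 18.6% of all tested genes. The starting levels differed: without SAG the 18 genes summed to 2301 to 2352 CPM with Hoxb1 and 5987 to 6564 CPM without it. With SAG the sums were 1789 to 1827 CPM with Hoxb1 and 2172 to 2467 CPM without it. Gdf15 and Chac1 fell (log2 changes -1.66 and -1.38). The 2 that rose were Nupr1 (0.4) and Vldlr (0.54), and 1 of them was called without replicate 1 or 3 of the cells with SAG, without replicate 2 of those without it, and with the length trend removed. Of 13 p53 target genes, 5 rose and 6 fell, against 36.4% and 35.8% of all tested genes. The falls were by at most -0.99 (Perp) and -0.64 (Btg2). Of 19 glycolysis and hypoxia genes, 8 rose and 5 fell, against the same shares. The log2 changes were -1.04 for Pfkp, a phosphofructokinase, and -0.92 for Vegfa, the vascular growth factor. Of 16 primary cilium genes, 12 fell and 1, Rfx2 (1.02), rose. Kif3a, a motor of transport in the cilium, fell from 157 ± 6.11 to 82.3 ± 0.756 CPM (-0.93). Of 10 tested mitochondrially encoded genes, 6 rose and 0 fell. 1 of the 10 reached the filter's minimum only through libraries with SAG, so that a rise of it was largely fixed by the filter. mt-Nd1 rose from 744 ± 43.7 to 1411 ± 61.4 CPM (0.92). mt-Atp6 rose from 0.921 ± 0.301 to 2.11 ± 0.346 CPM (1.18) and is uncertain, since its reads can also map to a near-identical nuclear copy. With the length trend removed, 4 mitochondrially encoded genes were called lower, and 1 was when replicate 3 of either group was left out.

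The response to SAG differed by Hoxb1 in 5759 of 16238 genes (35.5%), 2733 with a positive and 3026 with a negative difference, of which 420 (2.59%) and 432 (2.66%) were at least 2-fold. The test takes each library set once with and once without Hoxb1, so that a shift of the sets that is equal in both leaves the difference unchanged, while an unequal one does not. In 266 genes (1.64%) SAG went with a rise in the cells with Hoxb1 and a fall in those without, and in 319 (1.96%) with the reverse. Nefm, Nefl, Gap43 and Wnt1 are among the first and Hes5, Gad2, Slc32a1, Spon1 and Corin among the second.

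**Figure D5:**
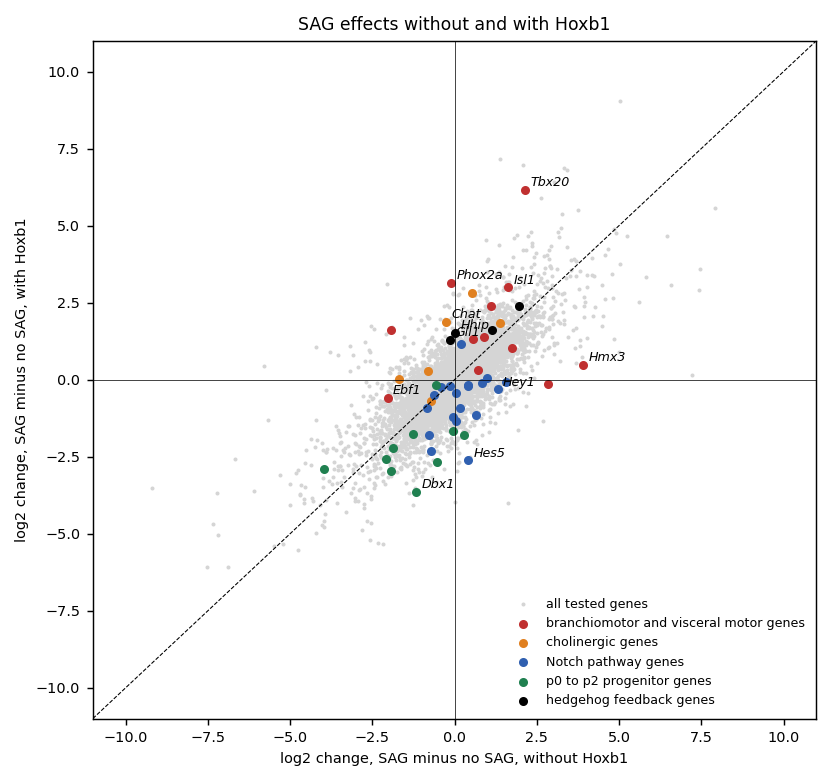
Log2 change with SAG in progenitors with Hoxb1 (vertical axis) against that in progenitors without Hoxb1 (horizontal axis), 1 grey point per tested gene, with the members of 5 lists in colour; the dashed line marks equal change. Phox2a and Tbx20 lie above the line (differences of 3.25 and 4.04), and Hes5, Dbx1 and Hmx3 lie below it (-3.04, -2.5 and -3.43).

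The 5 most positive differences ranked were those of Stab1, Cntn2, Trim66, Tbx20 and Hprt. Ranked were called differences of genes with at least 10 CPM in any group. Their libraries with Hoxb1 also had to show no overlap between SAG and no SAG. A gene that changed only without Hoxb1 could thus be left out. Cntn2, an adhesion molecule of newly made axons, including those of facial branchiomotor neurons, stood at 65.6, 61.9 and 62.4 CPM without SAG and 196, 199 and 192 CPM with it (log2 change 1.63, SE 0.0408, adjusted p = 2.05e-31). Without Hoxb1 it stood at 114, 106 and 102 CPM without SAG and 18.1, 20.2 and 20.1 CPM with it (-2.46), and the difference was 4.09, SE 0.0636, adjusted p = 9.54e-38. Stab1, a scavenger receptor of endothelium and macrophages, rose from 8.56 ± 0.765 to 17.8 ± 1.96 CPM (1.06) with Hoxb1 and fell from 7.35 to 0.392 CPM (-4.21) without it (difference 5.28, SE 0.225, adjusted p = 2.52e-22). Hprt, an enzyme of purine salvage, rose from 6.73 ± 0.954 to 15.6 ± 1.37 CPM (1.21) and fell from 4.16 to 0.631 CPM (-2.71) without Hoxb1 (difference 3.91, SE 0.236, adjusted p = 2.26e-17). Trim66 fell in both, from 7.45 ± 1.34 to 1.23 ± 0.0756 CPM (-2.59) and from 233 to 2.21 CPM (-6.68), with a difference of 4.09, SE 0.758, adjusted p = 0.00274, and the cells without Hoxb1 or SAG had a level far above the other 3 groups. The 5 most negative under these conditions were Slc6a4, Hes5 and Slc32a1, given above, and Prelp and Bhlhe41. Hmx3, whose difference was more negative than these, did not meet the conditions. Prelp, a matrix proteoglycan, fell from 18.8 ± 0.452 to 2.43 ± 0.236 CPM (-2.95) and was not called without Hoxb1 (10.1 and 10.6 CPM, adjusted p = 0.581; difference -3.01, SE 0.16, adjusted p = 4.50e-19). Bhlhe41, a repressor of the circadian clock, fell from 25.3 ± 0.988 to 3.89 ± 0.284 CPM (-2.69) and was not called without Hoxb1 (6.53 and 7.05 CPM, adjusted p = 0.419; difference -2.81, SE 0.165, adjusted p = 2.80e-17).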

How the data were processed

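RNA was measured in 18 libraries. Per the labels' protocols, polyadenylated RNA was selected and strand-specific libraries were made. Per the submitters' processing notes, bcl2fastq 1.8.2, featureCounts 1.4.6 and the mm10 build were used. Which aligner, gene annotation and strand option were used, and how reads with several positions were treated, was not given in the sources used here. Deposited values are the authors' raw counts per gene, without normalization, for 37224 Ensembl genes, of which 35449 were matched to a symbol.

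The 12 neural progenitor libraries were fitted together in R 4.3.3 with edgeR 4.0.16, with 1 mean per group (filterByExpr by group, TMM, estimateDisp, glmQLFit with robust estimation, glmQLFTest). The common biological coefficient of variation was 2.91% on 8 residual degrees of freedom. P-values were Benjamini-Hochberg adjusted over all 16238 tested genes, and genes were called under 0.05. The SE of a log2 change is its size divided by the square root of F. Chi-square per gene between replicate libraries was 1.35 to 3.72, above 1 for every pair, so that none was counted as a repeat of another. The procedure was tested on simulated data. Alternatives were other scalings and filters, DESeq2 1.42.0, all 18 libraries, the 6 libraries alone, equal depth, a replicate block, a removed length trend and each library left out.

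The cells and the 44 lists were chosen with earlier results of these data known, so that the lists' directions are no independent evidence. Named were Hoxb1, all tested members of 5 lists (hedgehog feedback, floor plate, p3, pMN, p0 to p2), the 10 largest rises and falls at 10 CPM or more without overlap between libraries (predicted genes, RIKEN clones and pseudogenes left out), up to 2 called members at 1 CPM or more of each other list, and the 5 most positive and 5 most negative differences. The differences were ranked among called ones under the same conditions, with at least 10 CPM in any group. No overlap was again asked of the libraries with Hoxb1 only. Further members that a list's description turns on were chosen after their values were seen. Results of 8 genes are not reported here, though counts and medians of their lists include them. Of the 589 list names, those with too few counts were not tested. In lists other than Hox groups 5 to 9, at most 3 tested members reached the filter's minimum of 0.539 CPM in 3 libraries only through the libraries with SAG, and at most 3 only through those without. In every list the direction of such members was largely fixed by the filter.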

Additional observations from a re-analysis of the deposited data

Results flagged for a closer look

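Of the 131 genes named by rule, 95 had a SAG effect with Hoxb1 that differed from the one without it by the test of the difference (edgeR, adjusted p under 0.05), and 50 of these differences were at least 2-fold. Over all genes 35.5% were called, and the lists had been chosen with results known. Values are given below for 90 of the 95, as the log2 change with Hoxb1 minus that without. A positive value means that SAG went with a larger rise or a smaller fall in the cells with Hoxb1. 15 of the 131 genes lost the call of a difference in at least 1 alternative and 5 gained one, as given in the part on processing.

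Among motor neuron genes the value was 4.04 for Tbx20, 3.25 for Phox2a, 2.27 for Prph, 1.39 for Isl1 and -1.05 for Lhx1. Over the 12 branchiomotor and visceral motor genes 8 differences were positive and 4 negative, against 16.8% and 18.6% of all tested genes. Hedgehog feedback genes had 1.51 (Hhip), 1.43 (Gli1) and 0.46 (Ptch1), while the pathway members Boc and Scube2 had 0.2 and -2.0. Among floor plate genes the value was 1.44 for Foxa2, 0.75 for Lmx1b, 0.69 for Nr4a2 and 0.39 for Sulf1, and it was negative for Foxa1 (-0.36), Ntn1 (-0.41), Foxj1 (-0.47), Corin (-1.23) and Spon1 (-1.75). In p3 and pMN genes it was 0.88 for Nkx2-2, 0.54 for Nkx6-1, 1.05 for Olig2, -0.6 for Olig1 and -1.07 for Neurog2. In p0 to p2 genes it was 0.41 for Irx1, -0.34 for Irx5, -0.47 for Irx2, -0.5 for Irx3, -1.05 for Pax6, -1.64 for Foxn4, -2.08 for Dbx2, -2.14 for Prdm8 and -2.5 for Dbx1.

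Dorsal and crest genes had 3.54 (Pax7), -0.69 (Pax3) and 0.72 (Tfap2b). Neuronal genes had 4.09 (Cntn2), 1.6 (Mab21l1), 1.55 (Nhlh1), 0.95 (Slc17a6), -0.44 (Neurog1), -0.8 (Robo3), -0.94 (Dcc), -1.3 (Kcnh1), -2.13 (Glra1), -2.95 (Slc32a1) and -3.1 (Slc6a4). The Notch genes Dner and Hes5 had -1.6 and -3.04. For genes of axial level the values were 2.86 for Hoxc4, 2.5 for Hoxa9, 2.32 for Hoxd3, 1.99 for Hoxd9, 1.47 for Egr2, 0.75 for Barhl2 and -2.47 for Nkx2-1. The retinoid genes Aldh1a1 and Cyp26b1 had 2.65 and 0.93.

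In signal readouts the difference was 1.41 for Wif1, 0.6 for Sp5, 0.6 for Spry1 and -0.95 for Dusp4, and in immediate early genes 2.7 for Egr3 and 1.77 for Fosb. Markers of other cell types had 1.98 (Prdm14), 0.74 (Tdgf1), 1.5 (Cdh5), 0.81 (Pecam1), 0.87 (Meox2) and 0.61 (Dcn). For growth, stress and metabolism it was 0.87 (Igf2), 0.92 (Pfkp), 0.88 (Vegfa), 0.83 (Gdf15), 0.46 (Rfx2), -0.29 (Ccne1), -0.34 (Perp), -0.63 (Btg2), -0.67 (Idi1), -0.89 (Cdkn2a), -0.98 (Cdkn2b) and -1.38 (mt-Atp6). The other genes named for their size had 5.28 (Stab1), 4.09 (Trim66), 3.91 (Hprt), 2.79 (Col15a1), 1.9 (Ppp1r17), -2.04 (Vcam1), -2.81 (Bhlhe41) and -3.01 (Prelp).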

How the results depend on the processing

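Under 22 alternatives (10 other settings and 12 with 1 library left out; 21 for the difference, which the 6 libraries alone cannot give), the counts of called genes stayed within 1.5 times those reported in all 3 comparisons. With 1 library left out, the SAG effect with Hoxb1 gave 5553 to 6075 genes higher and 5534 to 5983 lower (1153 to 1383 and 1232 to 1320 at least 2-fold). The SAG effect without Hoxb1 gave 5510 to 6040 higher and 5702 to 6049 lower (1141 to 1356 and 1166 to 1294). The difference was positive for 2451 to 2822 genes and negative for 2717 to 3023 (402 to 446 and 404 to 450). Leaving out a library keeps 2 in that group. Deviations of same-numbered libraries correlated by -0.0406, -0.00148 and -0.0092 between the groups with Hoxb1 and by 0.155, 0.131 and 0.0017 between the groups with SAG. In no pair of groups were all 3 above 0.1, so that the numbers were not taken to pair the libraries. With the replicate number as a block, 5945 genes were higher and 5850 lower, and 2833 differences were positive and 3111 negative. Removing the length trend, an alternative chosen after the length quartiles were seen, gave 5765 higher and 5618 lower.

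No called change of a named gene reversed in any alternative. Besides those given with their genes, the change with Hoxb1 moved by over 1.5 times at equal depth for Aldh1a1 (3.58) and Trhr (-6.14). Of 131, 3 changed their call of the SAG effect with Hoxb1 (Irx1, Foxj1 and Olig1), 8 that without Hoxb1 and 20 that of the difference. The 15 that lost a difference included Hoxd9 in 11 settings, Irx5 in 6, Perp in 5, Cdh5 and mt-Atp6 in 4, Boc and Sp5 in 3, Ccne1, Fosb, Glra1 and Idi1 in 2, and Foxa1, Meox2 and Tdgf1 in 1. The 5 that gained one were Chat in 7 settings, Gfap, Kif3a, Meox1 and Prdm12. Of 1936 counts of list members, 29 moved by over 1.5 times; besides those given with their lists, upper-quartile scaling left 2 rather than 4 proliferation genes lower and called 1 FGF feedback gene higher. With the length trend removed, 2 rather than 1 Notch pathway genes and 2 rather than 1 cilium genes were higher, and with no filter on low counts 2 rather than 1 dorsal interneuron genes were. A filter of 1 CPM in 6 libraries left 1 rather than 2 somatic motor neuron genes and 7 rather than 11 ventral interneuron genes lower. The cause of these changes was not tested beyond the smaller number of genes under that filter. Depth limits genes near 1 CPM, such as most posterior Hox genes. SAG and library set cannot be told apart under any of these settings.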
